A study of Solanum lycopersicum with 9 samples.

Results

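Hexokinases and fructokinases are the enzymes that phosphorylate free hexoses in plant cells, and 8 tomato (Solanum lycopersicum) genes for them, named HXK1 to HXK4 and FRK1 to FRK4, were followed in leaves whose source to sink balance had been altered. The 8 genes were chosen by identifier and not by their values, although earlier results of these data were known at the time. All 8 were among the 23195 genes of the deposited count table. The table gives identifiers without names. A RefSeq gene table (assembly SLM_r2.1) holds a gene of each of the 8 names, on the chromosome that the identifier encodes in 8 of 8 cases. HXK1 and FRK1 share chromosome 3, and HXK2 and FRK2 share chromosome 6, so the chromosome cannot tell these apart. No source used here pairs the identifiers with the names directly.

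Sucrose is cleaved into glucose and fructose, or into UDP-glucose and fructose, and neither free hexose can enter glycolysis or starch synthesis until it carries a phosphate. Hexokinases accept glucose and fructose, whereas fructokinases are specific for fructose. In Arabidopsis, hexokinase is also known as a glucose sensor, and tomato plants that overexpress the Arabidopsis enzyme are known for reduced photosynthesis and growth. The tomato hexokinases HXK1, HXK2 and HXK3 are associated with mitochondria and HXK4 is a plastid enzyme. Among the fructokinases FRK3 is plastidic, the others are cytosolic, and FRK4 is known as a gene of the stamens.

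Wild-type plants of cultivar M82 were grown in pots in a greenhouse under natural light and sampled as 3 groups of 3 biological replicates. In the defoliation group all leaves but the sampled one were cut away. In the shading group the youngest fully expanded leaf stayed exposed and every other leaf was wrapped in aluminium foil. Control plants received neither treatment, and RNA came from the remaining leaf or its counterpart in controls. The treated libraries carry the number 48 in their labels, without a unit, and the controls do not, so the treatments and whatever it marks cannot be told apart against control. The labels give leaf mesophyll as the cell type, which was not checked against marker genes because the identifiers of such genes are not annotated in the sources used here.

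Library totals lay between 17617138 and 31012772 counts, and the shallowest, shading replicate 3, had 1657 genes without counts where the others had 334 to 711. At these depths 3 counts equal 0.0931 to 0.194 CPM (counts scaled to library size, with TMM factors). Of the 8 members, 7 passed the filter on low counts and were tested, and FRK4 did not pass. CPM is not divided by transcript length, so levels are compared between groups for a gene and not between genes.

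HXK3 was the member called higher against control, by about 2-fold after both treatments, although some settings lost the call. The control libraries held 1.30, 0.85 and 0.72 CPM of HXK3 (Solyc12g008510.2, chromosome 12), the defoliation libraries 1.53, 2.30 and 2.29 CPM, and the shading libraries 2.50, 2.01 and 1.42 CPM. All 6 treated libraries lay above all 3 controls, and the ranges of the treatments overlapped each other. Group means were 0.955 ± 0.301 CPM for control, 2.04 ± 0.441 CPM for defoliation and 1.98 ± 0.543 CPM for shading (SD, n = 3 each). The difference after defoliation was 2.13-fold (log2 fold change 1.09 ± 0.34 SE, 95% interval 0.34 to 1.85, adjusted p = 0.0309 by the quasi-likelihood F-test of edgeR, with Benjamini-Hochberg correction across the 20480 genes tested). Under shading it was 2.08-fold (log2 fold change 1.06 ± 0.34 SE, 95% interval 0.30 to 1.82, edgeR adjusted p = 0.0402). In leaf RNA as a whole, more RNA per cell and more cells of an expressing type cannot be told apart.

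Both HXK3 calls rest on few counts, 21 to 74 per library, and were lost in some fits without 1 library. Such fits have fewer libraries for every gene, and called 5024 to 7303 genes after defoliation, beside 7015 with all 9 libraries. Why the HXK3 calls were lost was not tested. After defoliation the HXK3 call was lost without control replicate 2 (log2 fold change 1.01) or 3 (0.93), or without defoliation replicate 2 (1.00) or 3 (1.00). Under shading it was lost in 7 of 18 settings, among them those without control replicate 2 (1.00) or 3 (0.89), shading replicate 1 (0.86) or 2 (1.05), or defoliation replicate 2 (1.06), and the fit of the control and shading groups alone (1.06). The log2 fold change stayed between 0.93 and 1.38 after defoliation and between 0.86 and 1.34 under shading over all 18 alternative settings. These comparisons share their control libraries, so the 2 values are not separate observations.

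**Figure D1:**
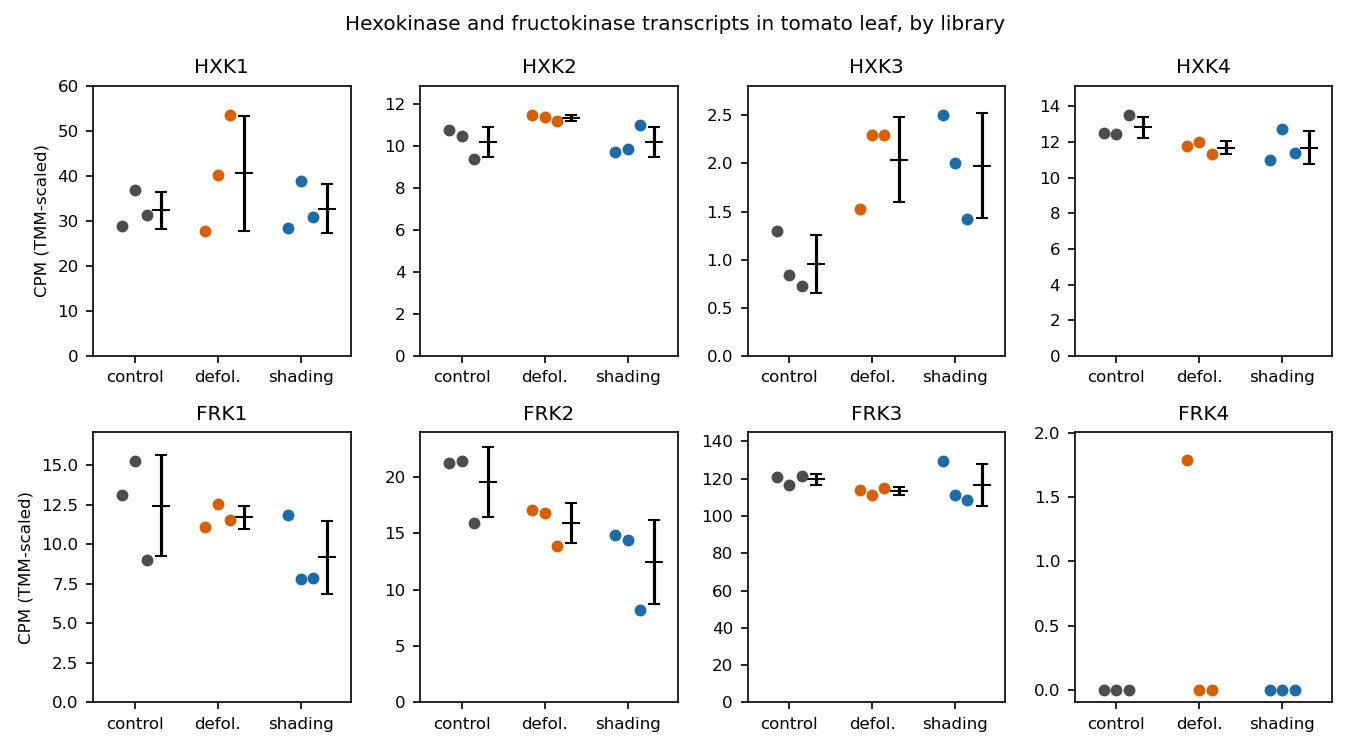
Transcript level of each member in CPM (vertical axis, linear) in the 3 control, 3 defoliation and 3 shading libraries (points, in order of replicate number), with the mean and SD of each group as a bar (left out for FRK4). HXK3 is higher in all 6 treated libraries than in the controls, FRK2 has its lowest mean under shading, and FRK4 has counts in defoliation replicate 1 alone.

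HXK1, a further mitochondria-associated hexokinase, differed between libraries of one group more than between groups. The control libraries held 28.9, 37.0 and 31.2 CPM of HXK1 (Solyc03g121070.3, chromosome 3), the defoliation libraries 27.8, 40.3 and 53.6 CPM, and the shading libraries 28.3, 38.9 and 31.0 CPM. The groups overlapped, with defoliation replicate 1 below every control and defoliation replicate 3 above every other library. The log2 fold change after defoliation was 0.33 ± 0.22 SE (95% interval -0.17 to 0.82, edgeR adjusted p = 0.281). It was 0.54 without defoliation replicate 1 (adjusted p = 0.0592) and 0.08 without defoliation replicate 3. Under shading the HXK1 log2 fold change was 0.02 ± 0.22 SE (95% interval -0.48 to 0.51, edgeR adjusted p = 0.964).

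HXK2 and HXK4 stayed in narrow ranges in all groups. HXK2 (Solyc06g066440.3, chromosome 6) stood at 10.7, 10.5 and 9.38 CPM in the controls, at 11.5, 11.4 and 11.2 CPM after defoliation and at 9.71, 9.84 and 11.0 CPM under shading. The defoliation libraries lay above both other groups, but the log2 fold change against control was 0.15 ± 0.13 SE (95% interval -0.12 to 0.43) and did not pass (edgeR adjusted p = 0.371). Under shading the HXK2 log2 fold change was -0.0029 ± 0.13 SE (95% interval -0.28 to 0.28, edgeR adjusted p = 0.989).

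The plastid hexokinase HXK4 (Solyc04g081400.3, chromosome 4) held 12.5, 12.4 and 13.5 CPM in the controls, 11.8, 12.0 and 11.3 CPM after defoliation and 11.0, 12.7 and 11.4 CPM under shading. It lay below the controls in all 3 defoliation libraries and in 2 of the shading libraries. Its log2 fold changes were -0.13 ± 0.12 SE after defoliation (95% interval -0.40 to 0.13, edgeR adjusted p = 0.422) and -0.13 ± 0.12 SE under shading (95% interval -0.40 to 0.14, edgeR adjusted p = 0.441). For HXK2 and HXK4 the intervals leave room for changes of at most 1.35-fold upward and, for a decrease, to 0.757 of the control level.

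Among the fructokinases no member passed the test in any comparison, and FRK2 under shading came nearest. FRK2 encodes a cytosolic fructokinase that is needed for normal vascular tissue in tomato stems. The control libraries held 21.3, 21.4 and 16.0 CPM of FRK2 (Solyc06g073190.3, chromosome 6), the defoliation libraries 17.1, 16.8 and 13.9 CPM, and the shading libraries 14.9, 14.4 and 8.20 CPM. All 3 shading libraries lay below all 3 controls, while the defoliation libraries overlapped both other groups. Under shading the level was 0.643 of control (log2 fold change -0.64 ± 0.22 SE, 95% interval -1.13 to -0.15), with an unadjusted p of 0.0155 and an adjusted p of 0.0509 (edgeR). After defoliation the FRK2 log2 fold change was -0.29 ± 0.22 SE (95% interval -0.78 to 0.19, edgeR adjusted p = 0.323).

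Whether FRK2 passed the threshold under shading varied with the setting. It passed in 5 of 18 settings, among them DESeq2 (log2 fold change -0.63, adjusted p = 0.0314, with 33.2% of genes called), a stricter filter on low counts (-0.64, adjusted p = 0.0487) and fits without control replicate 3 (-0.76) or shading replicate 1 (-0.78). Shading replicate 3, the shallowest library, had the lowest FRK2 level, and without it the log2 fold change was -0.41 (edgeR adjusted p = 0.100).

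**Figure D2:**
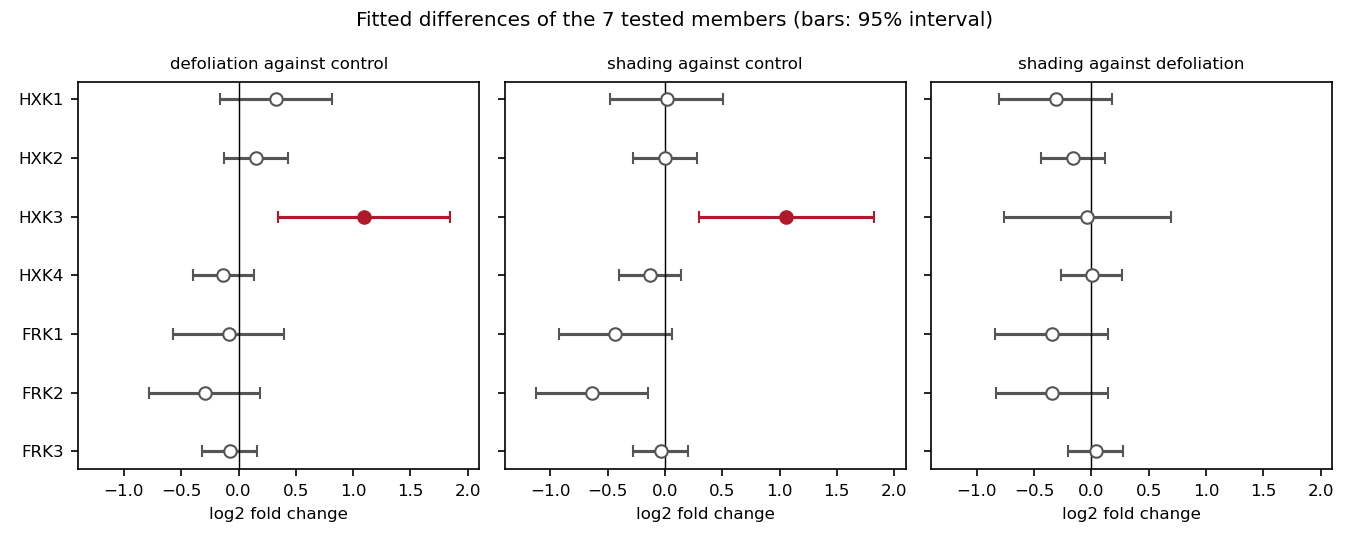
Fitted log2 fold change (horizontal axis) of the 7 tested members in the 3 comparisons, with its 95% interval as a bar and filled red points for an adjusted p below 0.05. HXK3 is the called member against control in both treatments, the FRK2 interval under shading ends at -0.15, and every interval of the direct comparison includes 0.

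FRK1, a further cytosolic fructokinase, was uneven among the controls. Its control libraries held 13.1, 15.2 and 8.996 CPM (Solyc03g006860.3, chromosome 3), the defoliation libraries 11.1, 12.5 and 11.5 CPM, and the shading libraries 11.9, 7.83 and 7.88 CPM. The lowest control lay above shading replicates 2 and 3 and below all other libraries. The FRK1 log2 fold change was -0.44 ± 0.22 SE under shading (95% interval -0.93 to 0.06, edgeR adjusted p = 0.166) and -0.09 ± 0.22 SE after defoliation (95% interval -0.58 to 0.40, edgeR adjusted p = 0.787).

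FRK3, the plastid fructokinase, had the least variable level of the members, with a coefficient of variation of 5.52% over the 9 libraries against 6.73% to 39.3% for the other 6 tested members. The control libraries held 121, 116 and 121 CPM of FRK3 (Solyc02g091490.4, chromosome 2), the defoliation libraries 114, 111 and 115 CPM, and the shading libraries 129, 111 and 109 CPM. The defoliation libraries lay just below the controls, and shading replicate 1 lay above every other library. The FRK3 log2 fold change was -0.08 ± 0.11 SE after defoliation (95% interval -0.32 to 0.16, edgeR adjusted p = 0.616) and -0.04 ± 0.11 SE under shading (95% interval -0.28 to 0.20, edgeR adjusted p = 0.819). With 1685 to 3621 counts per library, FRK3 was also the member counted most deeply.

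FRK4 (Solyc10g017620.3, chromosome 10) had 48 counts, or 1.79 CPM, in defoliation replicate 1 and no counts in the other 8 libraries. No counts allow a level of up to 0.0931 to 0.194 CPM, depending on the library, and cover counting error alone. It was not tested. Defoliation replicate 1 also held 36 genes, FRK4 included, with at least 10 counts there and none in the other 8 libraries, while the other libraries held between 0 and 5 such genes each. The part of these genes in the FRK4 counts was not tested.

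In all, 1 of the 7 tested members was higher and 0 were lower after defoliation, where 34.3% of all tested genes were called, 18.9% higher and 15.4% lower. Under shading 1 of 7 was higher and 0 were lower, where 30.2% of all tested genes were called, 16% higher and 14.2% lower. The unadjusted p was below 0.05 for 1 member after defoliation and 2 under shading, with 44.9% and 41.6% of all tested genes below it. With 7 members these counts cannot be told from the background. The median log2 fold change of the 7 members was -0.08 after defoliation and -0.04 under shading, beside -0.02 and -0.02 over all genes tested. HXK3 lay above 89.9% of all tested genes in log2 fold change after defoliation and above 91.6% under shading, whereas FRK2 lay above 32.1% and 15.7%. These ranks cover genes of every depth, and HXK3 was not ranked among genes with counts as low as its own. Libraries of the groups did not overlap for 4 of 7 members after defoliation and 2 of 7 under shading, with backgrounds of 51.9% and 46.3%.

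Shading set directly against defoliation compares sampled leaves of plants whose other leaves were darkened or gone. The groups also differ in the cutting and the foil, which cannot be told apart here from the missing or darkened leaves. No member was called, and no member had an unadjusted p below 0.05 in edgeR. The background was 0.0146% of genes called, 0.00977% higher and 0.00488% lower, so edgeR called nearly no gene in this comparison, and 16.6% of genes had an unadjusted p below 0.05. DESeq2 called 1014 genes here, 5.2% of those it tested, and no member was among them. The largest differences were log2 fold changes of -0.35 ± 0.22 SE for FRK1 (95% interval -0.84 to 0.15), -0.34 ± 0.22 SE for FRK2 (-0.83 to 0.15) and -0.31 ± 0.22 SE for HXK1 (-0.80 to 0.18). For HXK3 the log2 fold change was -0.03 ± 0.33 SE and its interval of -0.77 to 0.70 left room for 1.62-fold higher levels under shading. HXK2 was the member whose shading and defoliation libraries did not overlap, 1 of 7 against a background of 21.8%.

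The makeup of each family within a library does not depend on how libraries are scaled. HXK3 supplied 2.42%, 1.39% and 1.32% of the summed hexokinase counts in the controls, 2.91%, 3.48% and 2.92% after defoliation and 4.86%, 3.17% and 2.59% under shading. All 6 treated libraries were above all 3 controls in this share, as in CPM. The exact binomial 95% intervals, which cover counting error alone, reached from 1.70% to 3.34% in control replicate 1 and from 1.63% to 3.90% in shading replicate 3, the nearest pair of libraries. HXK1 supplied 57.3% ± 3.40, 60.8% ± 7.73 and 57.6% ± 3.24 of hexokinase counts (SD, n = 3 each) in the control, defoliation and shading groups, which overlapped.

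Within the fructokinases FRK2 supplied 13.7%, 14.0% and 10.9% of counts in the controls, 11.9%, 12.0% and 9.87% after defoliation and 9.53%, 10.8% and 6.57% under shading. The shading libraries were all below the controls, by a narrow gap between control replicate 3 and shading replicate 2. FRK3 supplied 79.0% ± 3.57 in control, 80.1% ± 1.62 in defoliation and 84.5% ± 2.32 in shading leaves (SD, n = 3 each). The FRK3 share in every shading library (lowest 82.87%) was above that in every defoliation library (highest 81.94%), while it overlapped the controls. The FRK1 share in every shading library (highest 7.60%) was below that in every defoliation library (lowest 7.71%). Shares within a family are not independent of each other, and no background was made for their overlap. In CPM the FRK3 libraries of the treatments overlapped, with a log2 fold change of 0.04 ± 0.11 SE for shading against defoliation. These shares weight each transcript by its length and are read across groups alone.

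**Figure D3:**
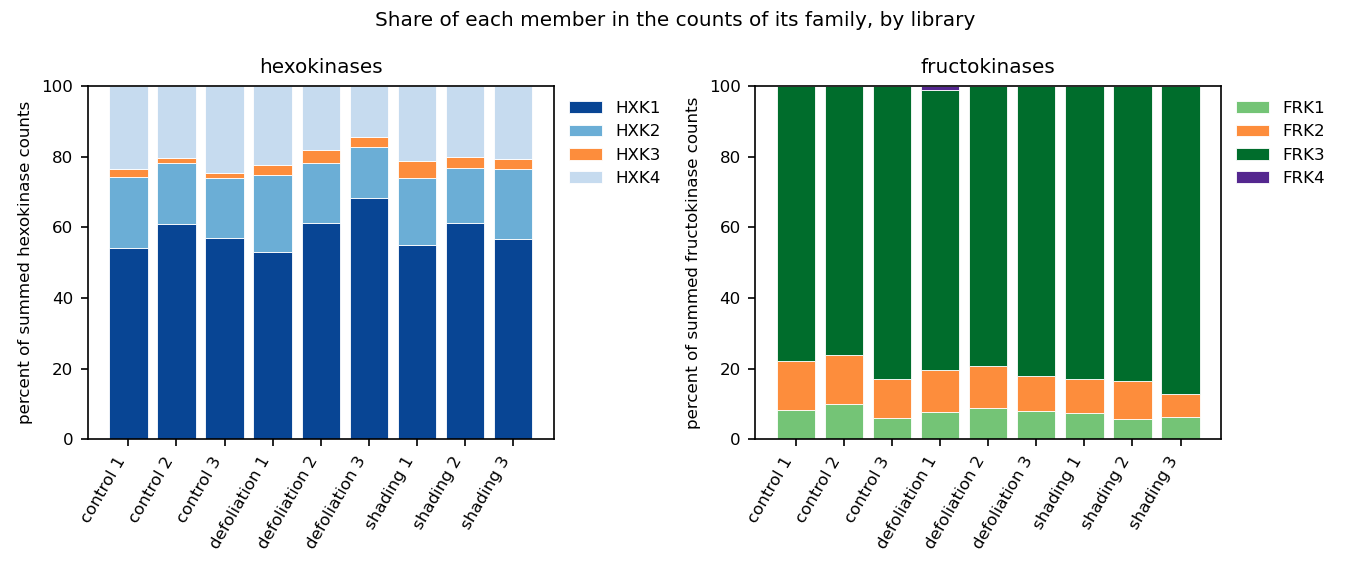
Percent of the summed hexokinase counts (left) and fructokinase counts (right) that each member supplied in each of the 9 libraries, stacked to 100. HXK1 and FRK3 supply most counts of their families in every library, the HXK3 band is wider in the treated libraries than in controls, and the FRK2 band is narrowest in shading replicate 3.

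Summed over the family, hexokinase transcripts stood at 56.3 ± 3.87 CPM in control, 65.6 ± 12.9 CPM in defoliation and 56.6 ± 6.17 CPM in shading leaves (SD, n = 3 each), with overlapping libraries. The highest sum, 78.3 CPM, was that of defoliation replicate 3, in which HXK1 was highest. Fructokinase transcripts summed to 152 ± 4.71, 142 ± 1.79 and 138 ± 16.1 CPM. The defoliation libraries, at 144, 141 and 141 CPM, lay below the controls at 156, 153 and 146 CPM, and the shading libraries spread from 125 to 156 CPM across both. No test was made of these sums.

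**Figure D4:**
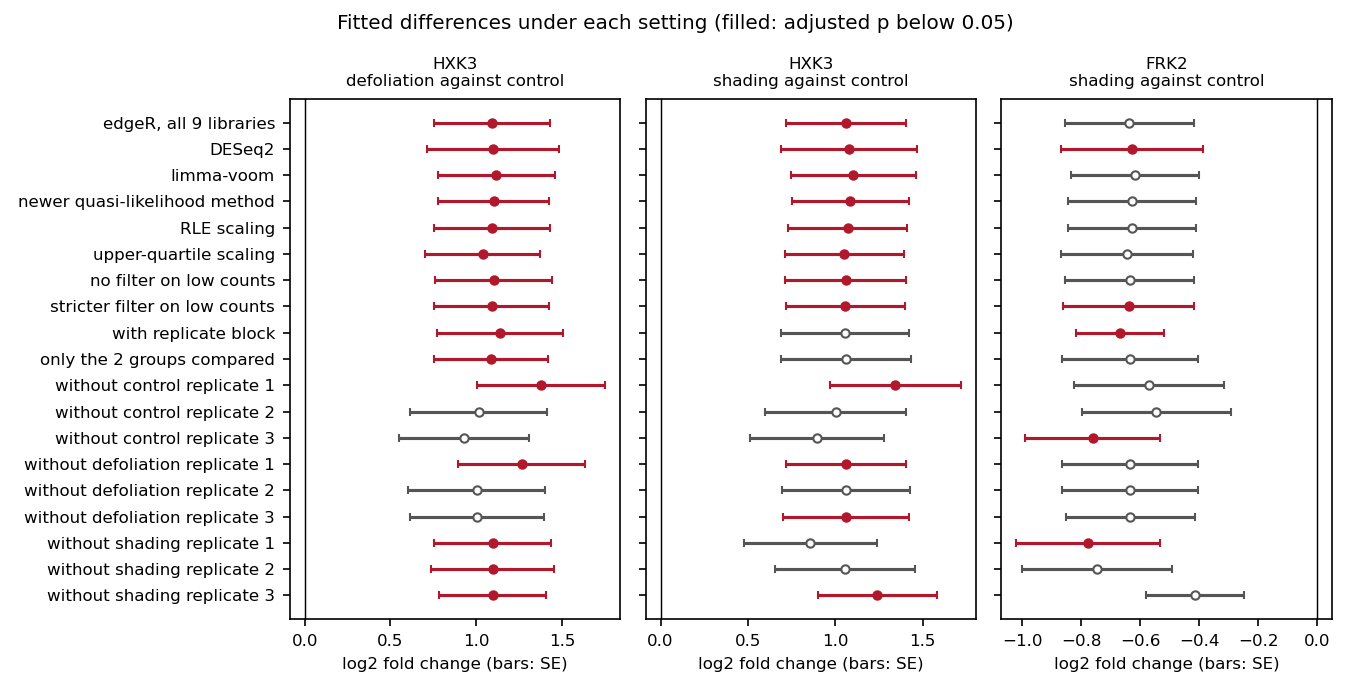
Fitted log2 fold change with its SE (horizontal axis) of HXK3 after defoliation, HXK3 under shading and FRK2 under shading, for edgeR with all 9 libraries and for each of the 18 alternative settings, with filled red points for an adjusted p below 0.05. HXK3 stays near a log2 fold change of 1 throughout while its call comes and goes, and FRK2 stays below 0 and passes in 5 of the 18.

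The genes most like HXK1 in log2 CPM over the 9 libraries were Solyc05g055870.3 (Pearson r = 0.958), Solyc03g083450.1 (r = 0.936) and Solyc10g080920.2 (r = 0.921). Those most like FRK3 were Solyc03g116340.3 (r = 0.951), Solyc02g064630.3 (r = 0.923) and Solyc06g050840.3 (r = 0.917). HXK1 and FRK3 were taken as the members of each family with the highest mean CPM, and all 9 points share the scaling and the groups. The genes named are the 3 with the highest correlations among all other genes tested. How high such a top would lie without any relation was not tested. Solyc03g116340.3, at 64.3 CPM in control, 40.7 CPM in defoliation and 64.7 CPM in shading leaves, differed more between groups than FRK3 did.

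A list of 12 further loci had been drawn up for sucrose cleavage, sucrose synthesis and sucrose transport, the steps around the kinases. The sources used here annotate none of these identifiers, so the list is given by its counts and no locus is named. After defoliation 2 of the 10 loci tested were higher and 1 was lower, and under shading 1 was higher and 1 lower (edgeR adjusted p below 0.05). These counts stand near the backgrounds of 34.3% and 30.2%. Between the treatments edgeR called 0 of the 10, and 5 had an unadjusted p below 0.05 (background 16.6%). DESeq2 called 5 there (background 5.2%). The median log2 fold change of the list was -0.33 after defoliation and 0.11 under shading.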

How the data were processed

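Messenger RNA libraries of 9 tomato leaf samples were made with a TruSeq RNA kit, per the labels' protocols. The deposited values are RSEM expected counts per gene, whole numbers in the table. Trim Galore, STAR, RSEM and DESeq2 are named in the submitters' processing notes. For versions, genome build and annotation nothing is given in the sources used here. RSEM estimates how reads shared by similar genes divide, so near-identical copies are uncertain. The kit does not mark strand.

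Counts were filtered by filterByExpr (20480 of 23195 genes, 99.96% of counts), scaled by TMM and fitted in edgeR 4.0.16 (R 4.3.3, robust quasi-likelihood, default method) with all 9 libraries and a coefficient per group. Benjamini-Hochberg correction covered every gene tested, with a threshold of 0.05. A standard error is the log2 fold change divided by the square root of F, and intervals use the fit's t quantile. The test was tried on simulated data, which had far fewer changed genes than were called here against control. Alternatives were DESeq2 1.42.0, limma-voom (limma 3.58.1), other scalings and filters, the newer quasi-likelihood method, 2-group fits, the replicate number as a block, and leaving out each library. The counts over the 12 further loci under these settings, and the count of genes found in 1 library alone, were added after seeing the data.

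The members and lists were chosen with earlier results of these data known. All 8 members are named. The 3 genes most like the hexokinase and the fructokinase of highest mean CPM were named by Pearson correlation. 0 of 23195 identifiers matched the RefSeq table, so member names were matched by symbol, marker lists were not used, and no sequences are shown.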

Additional observations from a re-analysis of the deposited data

How the results depend on the processing

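Of 378 alternative values for the 21 member log2 fold changes, 342 kept direction and side of the threshold, 11 lost a call, 5 gained one and 20 changed sign, all 20 from values that were not called. The number of members called was 0 to 1 without single libraries in both comparisons with control. Without control replicate 3 or shading replicate 1, the member called under shading was FRK2, which was lower, and not HXK3. The number called under shading was 2 with DESeq2 and 2 with the stricter filter (HXK3 and FRK2), and 0 with the 2 groups alone. Genes called between the treatments numbered 1014 with DESeq2 and 0 to 5 without single libraries, and the 12 further loci 5 with DESeq2, 1 with the 2 groups alone and 0 to 1 without single libraries. HXK2 under shading changed sign to 0.0068 with DESeq2, 0.011 with RLE scaling and 0.0031 with the 2 groups alone. Between the treatments HXK3 was 0.014 with upper-quartile scaling and HXK4 -0.0048 without a filter. Without single libraries the ranges that crossed 0 were -0.28 to 0.084 for FRK1 after defoliation, -0.13 to 0.15, -0.059 to 0.042 and -0.12 to 0.012 for HXK1, HXK2 and FRK3 under shading, and -0.24 to 0.14, -0.065 to 0.047 and -0.042 to 0.087 for HXK3, HXK4 and FRK3 between the treatments. The cause of these changes was not tested. Family sums and shares moved by more than 1 SD in 2 of 282 cases, both the fructokinase sum after defoliation (138 CPM with upper-quartile scaling, 144 CPM without shading replicate 3).

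Between groups, same-numbered libraries deviated from their group means with correlations of -0.187 to 0.141, and differently numbered ones with -0.146 to 0.192. Whether the replicate numbers pair the samples is not stated, and correlations over all genes cannot settle it for single genes. With the replicate number as a block, HXK3 under shading lost its call (log2 fold change 1.05, adjusted p = 0.0661), FRK2 under shading passed (-0.67, adjusted p = 0.0149), so that 1 member was called there, and 0 genes were called between the treatments. Counts were lowest for HXK3 and FRK4, with totals of 409 and 48 over the 9 libraries, so counting error is relatively largest for these members.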

Other observations

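Defoliation replicate 1 stood apart in genes found in it alone. It held 13 genes, FRK4 included, with at least the 48 counts of FRK4 and no counts in the other 8 libraries, against 0 to 2 genes in each other library. This count was made after the FRK4 values were seen.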
